A study of Mus musculus with 4 samples.

Results

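Cell cycle genes are a set of 40 transcripts that serve the copying of DNA and the division of the cell, chosen by gene symbol. All 40 were found among the 32285 genes of the count tables, and together they held 105357 of 212234719 UMIs (unique molecular identifiers, each standing for 1 captured transcript), or 0.0496%. The kidneys came from 2 C57BL/6J mice that carried a point mutation of the mitochondrial gene trnE, which encodes the transfer RNA for glutamate, and from 2 wild-type mice. The share of mutant mitochondrial DNA was labelled as 79% in trnE mutant 1 and 76% in trnE mutant 2. The name of the deposited files of trnE mutant 1 carries another number, whose meaning is not given in the sources used here. Single-cell suspensions of kidney were sequenced with 10x Genomics 3′ chemistry, 1 library per mouse. The labels give 1 load per mouse, no treatment is named, and neither the load of each cell type nor age, sex or litter is stated in the sources used here.

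Before a cell copies its DNA, the loading factors Cdc6 and Cdt1 place the Mcm2 to Mcm7 helicase on the chromosomes, a step called licensing. Cyclin E then starts DNA synthesis, which needs nucleotides from ribonucleotide reductase, thymidylate synthase and thymidine kinase and the sliding clamp Pcna. Cyclins A and B with the kinase Cdk1 carry the cell into mitosis, where motor proteins, Aurora kinases and checkpoint kinases separate the chromosomes. In an adult kidney most epithelial cells rest outside the cycle, while lymphocytes and other leukocytes divide when they are activated. The members were described in 4 groups by these roles: licensing and replication fork (14 genes), nucleotide supply (4), cyclins and their kinase (6) and the mitosis group without cyclins (16).

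The replication and mitosis members differ in the letters around their start sites, and the promoters of a few members that hold such letters are shown as examples. Promoter windows of RefSeq (GRCm38.p6, 250 bases before to 50 after the start) were found for 33 of the 40 members. The windows were searched on both strands for the CHR element (TTTGAA or TTCGAA), an element known from mitotic promoters, for the CCAAT box (CCAAT), and for an E2F site (TTTCCCGC, TTTGGCGC or TTTCGCGC), known from replication promoters. The CHR letters stood in 10 of 13 promoters of the mitosis group and in 3 of 12 of the replication group, against 21.7% of the promoters of all 27025 genes. The E2F letters stood in 9 of 12 promoters of the replication group and in 0 of 13 of the mitosis group, against 2.12% of all genes. CCAAT was common to both, with 11 of 13 and 9 of 12, and stood in 41.1% of all genes. These are matches of letters and not measured binding. The 250 bases before the start are printed 5′ to 3′ on the gene's strand, with the matches in capitals.
Top2a (chr11:99024190-99024439, minus strand): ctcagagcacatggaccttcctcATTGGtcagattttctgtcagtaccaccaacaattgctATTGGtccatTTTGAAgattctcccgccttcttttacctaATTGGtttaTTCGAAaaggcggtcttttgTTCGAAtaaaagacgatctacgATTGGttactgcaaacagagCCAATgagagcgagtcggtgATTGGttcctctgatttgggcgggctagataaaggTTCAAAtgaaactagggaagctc
Mki67 (chr7:135716380-135716629, minus strand): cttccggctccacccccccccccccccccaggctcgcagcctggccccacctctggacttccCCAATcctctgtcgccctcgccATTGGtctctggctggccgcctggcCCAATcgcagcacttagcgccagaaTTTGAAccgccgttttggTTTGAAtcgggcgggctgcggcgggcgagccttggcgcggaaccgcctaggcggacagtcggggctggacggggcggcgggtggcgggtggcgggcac
Cdk1 (chr10:69352913-69353162, minus strand): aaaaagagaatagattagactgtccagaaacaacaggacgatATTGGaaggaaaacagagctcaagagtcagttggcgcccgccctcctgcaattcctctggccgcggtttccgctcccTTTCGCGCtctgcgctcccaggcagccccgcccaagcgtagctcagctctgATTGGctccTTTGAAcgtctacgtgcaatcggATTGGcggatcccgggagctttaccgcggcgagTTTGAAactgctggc
Mcm6 (chr1:128359706-128359955, minus strand): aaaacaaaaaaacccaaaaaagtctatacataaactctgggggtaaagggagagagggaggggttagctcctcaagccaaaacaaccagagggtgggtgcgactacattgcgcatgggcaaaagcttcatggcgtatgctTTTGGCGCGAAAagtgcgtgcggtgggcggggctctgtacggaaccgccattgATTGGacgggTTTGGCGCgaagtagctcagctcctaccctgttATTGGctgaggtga
Hells (chr19:38930740-38930989, plus strand): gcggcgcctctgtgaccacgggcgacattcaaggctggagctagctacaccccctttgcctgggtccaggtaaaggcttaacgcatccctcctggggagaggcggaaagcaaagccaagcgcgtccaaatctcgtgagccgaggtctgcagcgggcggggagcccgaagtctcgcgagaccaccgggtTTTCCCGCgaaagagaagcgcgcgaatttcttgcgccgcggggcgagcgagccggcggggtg
Top2a held 4 CHR and 6 CCAAT matches and no E2F match in this stretch. Mki67 held 2 CHR and 3 CCAAT matches. Cdk1 held both kinds, with 2 CHR matches and 1 E2F match. Mcm6 held 3 E2F matches, of which the pair at 110 and 106 bases before the start share letters, and Hells held 1.

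The 4 libraries held 7242 to 11744 barcodes and 42121175 to 70013861 UMIs, and 30334 cells were kept, with medians of 4359 to 6462.5 UMIs per cell per library. Between 41 and 54 kept barcodes per library also occurred in another library. Wild type 2 stood apart in its cells: it gave 898 B cells and 56 macrophages, against 223 and 815 in wild type 1, 176 and 2747 in trnE mutant 1, and 367 and 1723 in trnE mutant 2. B cells were also deepest in wild type 2, with a median of 9787.5 UMIs against 3731.5 to 6947 in the other libraries. The medians, calls and shares in cycle of B cells, T cells and macrophages are therefore also given without it. Different clusters held most B cells in different libraries: the cluster led by Sox5 and Fcrl5 held 835 of the 898 in wild type 2, and the cluster led by Ighd and Fcer2a held 147 of the 176 in trnE mutant 1 and 179 of the 223 in wild type 1.

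Across classes, the summed members were higher in B cells, T cells and dendritic cells than in the proximal tubule in every library. Levels are given as CPM, the UMIs of a gene divided by all UMIs of the class in that library and scaled to a total of 1000000. The 40 members summed to 404 to 1305 CPM in dendritic cells, 641 to 1006 in T cells, 389 to 1179 in B cells and 257 to 558 in macrophages. They summed to 169 to 241 CPM in the proximal tubule, where a single gene, the microtubule-destabilising Stmn1, gave 57.5 to 108 CPM. The ranges of dendritic cells, T cells and B cells overlap, so their order is not resolved by 4 libraries. In every library T cells and dendritic cells lay above macrophages, while B cells did so only in the wild types. Counts from 3′ ends carry no gene length, so levels of different genes are set side by side only per UMI and not per base.

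**Figure D1:**
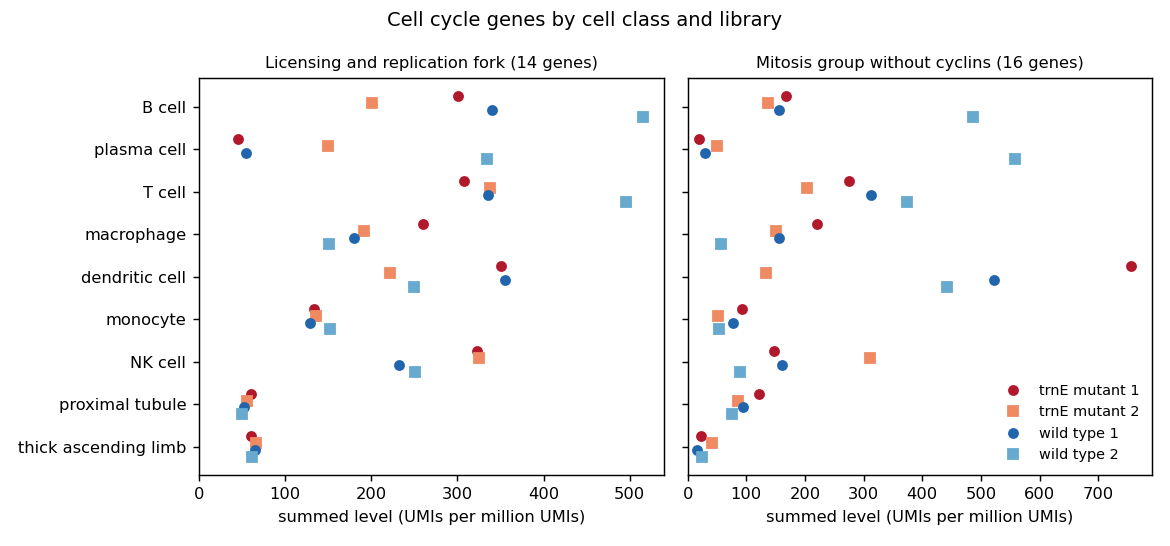
Summed level of the licensing and replication fork genes (left) and of the mitosis group (right), in CPM, for each class and library; each point is 1 library. In B cells and plasma cells wild type 2 stands to the right of the other 3 libraries, and in dendritic cells trnE mutant 2 stands to the left.

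Cells were called in cycle where at least 3 of 19 mitosis-group genes (the group with its A and B cyclins and Cdk1, and without Stmn1) had a UMI. This is a range of a count and not a cell type: 177 cells held exactly 3 of these genes and 716 held exactly 2. By this count 558 of 30334 cells (1.84%) were in cycle, of which 152 were dendritic cells, 108 B cells, 104 T cells, 102 macrophages and 46 plasma cells. In the proximal tubule, a mostly resting epithelium, the share was 0.270%, 0.199%, 0.195% and 0.0667% in trnE mutants 1 and 2 and wild types 1 and 2, at median depths of 4139.5 to 5978 UMIs. The cells in cycle were deeper than the others, with a median of 16800 against 5189 UMIs. Intervals below are exact binomial 95% intervals and cover counting error only.

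**Figure D2:**
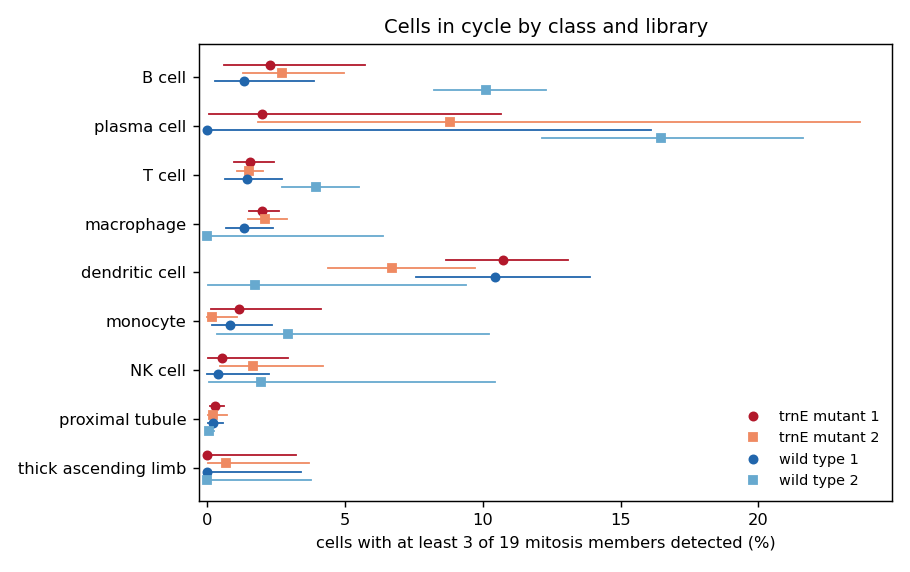
Share of cells with at least 3 of 19 mitosis-group genes detected, in percent, for each class and library; lines are exact binomial 95% intervals. Wild type 2 is at 10.1% in B cells against 1.35% to 2.72% in the other libraries, and at 0 in macrophages, where 56 cells were caught.

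The members split into genes found almost wholly in cells in cycle and genes also present outside them. Cells in cycle held 5.12% of all UMIs. Of the genes that were not used to define them, they held 94.8% of the UMIs of Pclaf, a partner of the sliding clamp, and 85.6% of those of Rrm2, the S-phase subunit of ribonucleotide reductase. In contrast, they held 16.1% of the UMIs of Cdt1, 20.7% of Pcna, 22.1% of Mcm4 and 23.2% of Mcm6. Pcna had a UMI in 21.2% of cells outside the cycle class and Pclaf in 0.635%. Over all kept cells, most UMIs of Cdt1, Pcna, Mcm4 and Mcm6 thus lay in cells with fewer than 3 mitosis-group genes, and most of those of Pclaf in the few cells at or above that count. Classes differed in this: within B cells, the cells in cycle held 44.8% of the UMIs of Pcna and 65.4% of those of Mcm5.

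**Figure D3:**
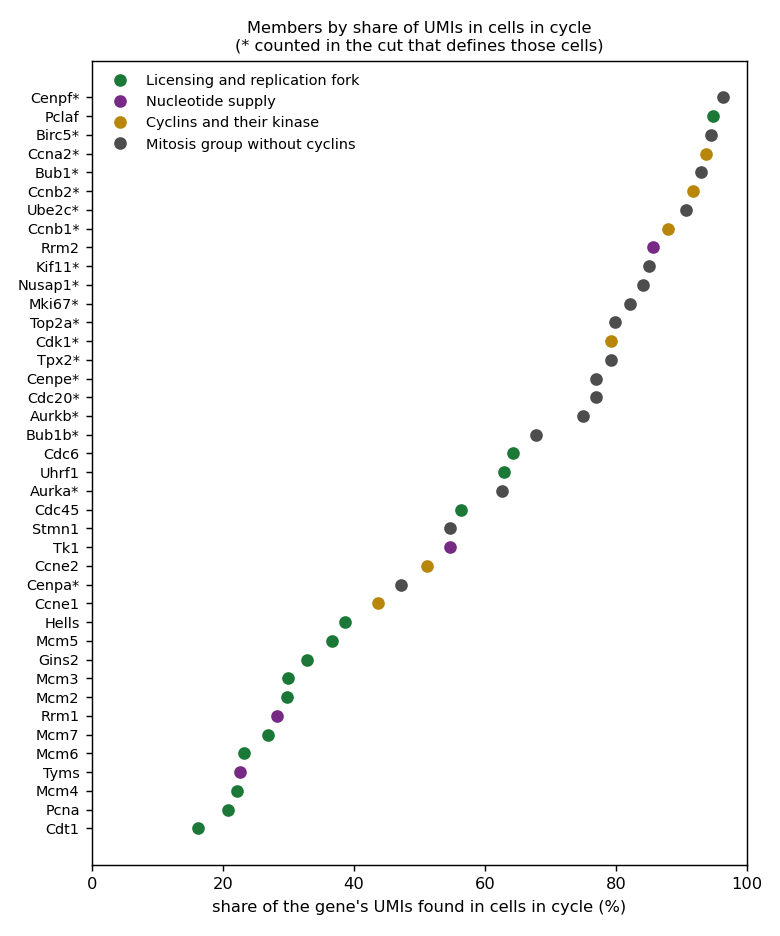
Share of each member's UMIs, over all kept cells, that lay in cells in cycle (percent); colours mark the 4 groups and a star marks the genes that define these cells, for which a high share follows from the definition. Among genes without a star, Pclaf (94.8%) and Rrm2 (85.6%) are at the top, and Cdt1 (16.1%) and Pcna (20.7%) at the bottom.

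In B cells, most members were lower in the mutants than in the mean of the wild types, but wild type 2 carried most of this difference and no member passed the test. Summed over the 40 members the levels were 531 CPM in trnE mutant 1, 389 in trnE mutant 2, 563 in wild type 1 and 1179 in wild type 2. Wild type 2 was the highest library for 37 of the 40 members. Wild type 1 was nearer to both mutants than to wild type 2. In edgeR's quasi-likelihood test, 28 members had enough counts to be tested and 0 passed an adjusted p of 0.05 (all genes: 0 of 9821, 0%), and DESeq2 called 0 members and 0 genes as well. At an unadjusted p under 0.05 there were 6 of 28 members, against 380 of 9821 genes (3.87%). The median log2 fold change (mutant over wild type) was -0.73 over the 28 members and -0.02 over all genes tested, and 26 of the 28 were below 0.

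The B cell members with the smallest p were the mitotic kinase Cdk1, the methylation-maintenance factor Uhrf1, the helicase subunit Mcm3, the chromatin remodeller Hells, the clamp partner Pclaf and the topoisomerase Top2a, each at an adjusted p of 0.775. Cdk1 was at 1.31 and 0.671 CPM in the mutants and 5.88 and 19.3 CPM in the wild types (1, 2, 8 and 196 UMIs), a log2 fold change of -3.73 ± 0.91 (SE, n = 2 against 2 libraries, edgeR). Uhrf1 was at 3.92, 2.35, 10.3 and 21.4 CPM, and its log2 fold change was -2.29 ± 0.63. For both genes the groups did not overlap, but the mutant values rest on 1 to 7 UMIs. Mcm3, with more counts, was at 18.3, 22.8, 41.9 and 53.3 CPM, a log2 fold change of -0.95 ± 0.32. Hells was at 14.4, 12.4, 25 and 37.3 CPM, again with both mutants below both wild types.

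For Pclaf and Top2a a single library was far above the other 3, though both mutants lay below both wild types only for Top2a. Pclaf was at 15.7, 2.01, 15.4 and 87.4 CPM, so that wild type 1 was level with trnE mutant 1. Top2a was at 18.3, 11.1, 20.6 and 79.4 CPM. Mki67, a protein of dividing nuclei that is widely used to mark them, was at 3.92, 7.72, 1.47 and 64.0 CPM: wild type 1 was the lowest library and wild type 2 the highest. The clamp Pcna was at 68.0, 40.3, 57.4 and 84.0 CPM, with overlapping groups. Mcm5 was at 18.3, 10.1, 21.3 and 24.4 CPM, a log2 fold change of -0.54 ± 0.44. Stmn1 was at 57.5, 27.2, 45.6 and 91.7 CPM, also with overlapping groups. Ccnb1, cyclin B1, had 0 UMIs in trnE mutant 1 and 3, 2 and 98 in the others and was not tested.

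**Figure D4:**
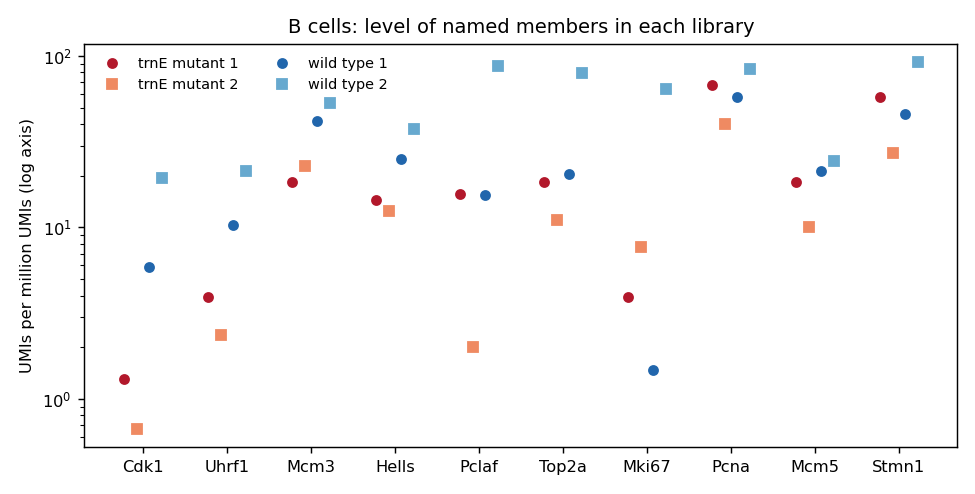
Level of the named members in B cells, in CPM on a log axis; each point is 1 library. Wild type 2 is the highest library for all 10 genes, by a wide gap for Mki67, Pclaf and Top2a and a narrow one for Mcm5 and Mcm3.

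Over all 40 members, both mutants lay below both wild types in CPM for 16 in B cells, above for 0, and the groups overlapped for 24. Among the members tested, 11 of 28 lay wholly below, against 32.3% of the 9821 genes tested, a share near the background, and 0 wholly above, against 10.1%. Leaving out wild type 1, so that wild type 2 stood alone for its group, gave members called lower. Among them were Cdk1, Pclaf, Mki67, Top2a, Uhrf1 and Kif11. The share of all genes called with them is not reported here, so these calls are not read as standing out. Leaving out wild type 2 gave 0, with a median log2 fold change of -0.24 over the 21 members then tested and 0.04 over all genes, and Mki67 then had a log2 fold change of 2.21 in place of -2.18. Without the filter on low counts 4 members were called lower (Mki67, Pclaf, Cdk1 and Top2a), all of them highest in wild type 2. The share of all genes called in that fit is not reported here, so these 4 are not read as standing out. In the cluster led by Sox5 and Fcrl5 alone, and in the other B cell cluster alone, 0 members were called. The 11 B cell markers summed to 11916, 13776, 11249 and 10349 CPM in this class. The 10 macrophage markers summed to 2204, 2642, 999 and 1321 CPM there, higher in both mutants, and their part in the members' values was not tested.

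The share of B cells in cycle followed the same library. It was 2.27% in trnE mutant 1 (4 of 176 cells, interval 0.623% to 5.72%), 2.72% in trnE mutant 2 (10 of 367, 1.31% to 4.95%), 1.35% in wild type 1 (3 of 223, 0.278% to 3.88%) and 10.1% in wild type 2 (91 of 898, 8.24% to 12.3%). The intervals of the first 3 libraries overlap, and wild type 2 lies above them. The mean of the mutants minus that of the wild types was -3.24 percentage points, and 1.15 without wild type 2. When each cell was thinned to 1500 UMIs, leaving out 2 to 15 shallower cells per library, the shares were 0.588%, 0.563%, 0% and 2.04%, and the interval of wild type 2 (1.21% to 3.20%) overlapped those of the other 3 libraries. In the cells outside the cycle class the 40 members summed to 316, 318, 379 and 376 CPM. This is a narrow range, with both mutants below both wild types in CPM. The scaling factors of the B cell test (TMM) were 0.855, 0.977, 1.045 and 1.145. With these factors the groups overlap, so that order depends on the scaling. The cells in cycle held 74.6% of the members' UMIs in wild type 2. Scrublet's doublets had been removed: of these, 8 of 267, 5 of 222, 1 of 90 and 6 of 128 met the same count.

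By cluster, 89 of the 91 cells in cycle of wild type 2 lay in the cluster led by Sox5 and Fcrl5, where the share was 13.8% (4 of 29), 4.76% (9 of 189), 6.82% (3 of 44) and 10.7% (89 of 835) in trnE mutants 1 and 2 and wild types 1 and 2. These intervals overlap. In the cluster led by Ighd and Fcer2a, genes of resting follicular B cells, the shares were 0% (0 of 147, which allows up to 2.04% by the 3-count limit), 0.562%, 0% and 3.17%. The library with the most cells in cycle was thus the one with the most cells of the first cluster.

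In wild type 2, genes known from germinal centres, where activated B cells divide, were higher in the B cells in cycle than in the other B cells. The transcription factor Mybl1 was at 70.7 CPM in the 91 cells in cycle against 6.56 CPM in the 807 others, Mef2b at 76.5 against 14.2 CPM and the signalling regulator Rgs13 at 32.0 against 1.36 CPM. Of 8 genes known from plasmablasts, 5 were also higher in the cells in cycle: Prdm1 was at 17.9 against 9.90 CPM, Derl3 at 15.0 against 9.65 CPM, Xbp1 at 79.4 against 53.1 CPM, Jchain at 52.8 against 36.4 CPM and Mzb1 at 1063 against 898 CPM. The others were Irf4 at 82.8 against 83.4 CPM, Sdc1 at 2.90 against 2.97 CPM and Tnfrsf17 with 0 and 2 UMIs. These are cells of 1 mouse, so the values describe that library and have no test. Plasma cells of wild type 2 also held many cells in cycle, 42 of 255 (16.5%), against 1 of 50, 3 of 34 and 0 of 21 in trnE mutants 1 and 2 and wild type 1, and that library was the highest for all 40 members there.

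In T cells, most members had lower levels in the mutants, and none passed the test. The sum of the 40 members was 702 CPM for trnE mutant 1 and 641 for trnE mutant 2, against 773 for wild type 1 and 1006 for wild type 2. Both mutants thus lay below both wild types in CPM. The scaling factors of the T cell test (TMM) were 0.871, 1.001, 1.02 and 1.124 in the same order of libraries. With these factors trnE mutant 1 lies above wild type 1 and the groups overlap, so that separation depends on the scaling. Of the 38 members tested, 0 passed (all genes: 0 of 11910, 0%; DESeq2 also 0 members), and 1 had an unadjusted p under 0.05, against 412 of 11910 genes (3.46%). The median log2 fold change was -0.28 over the members and 0.01 over all genes, and 5 of 38 were above 0. Both mutants lay wholly below in CPM for 21 of the 40 members and above for 1. Among the members tested they lay below for 20 of 38, against 27% of all genes tested, and above for 1, against 11.4%. Wild type 2 was the highest library for 30 of the 40 members. Without it 0 members were called, and the median log2 fold change was -0.11 over the members and 0.04 over all genes.

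The T cell members with the smallest p were 3 mitotic genes, a pair of nucleotide supply genes and a cyclin, each at an adjusted p of 0.757 in edgeR. The spindle motor Kif11 was at 4.68 and 6.99 CPM in the mutants and 8.11 and 22.1 CPM in the wild types, a log2 fold change of -1.17 ± 0.49. The spindle checkpoint kinase Bub1b was at 1.95, 2.14, 4.36 and 5.74 CPM, and the spindle assembly factor Tpx2 at 6.82, 7.19, 11.2 and 14.3 CPM. Ribonucleotide reductase subunit Rrm2 was at 11.5, 9.45, 18.7 and 19.7 CPM, and cyclin E2 (Ccne2) at 1.36, 1.55, 2.49 and 5.25 CPM. In all 5 of these genes both mutants lay below both wild types. Thymidylate synthase (Tyms) went the other way, at 35.5, 31.9, 24.3 and 27.5 CPM, and was the 1 member with both mutants above both wild types.

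Of the widely used markers in T cells, Mki67 was at 11.1, 14.8, 13.1 and 36.1 CPM and Top2a at 25.7, 21.6, 28.4 and 54.1 CPM. Pcna was at 65.7, 66.6, 66.1 and 87.9 CPM, and Mcm5 at 17.5, 18.6, 20.3 and 25.7 CPM. In these 4 genes wild type 2 lay above the other libraries. Stmn1 was at 99.4, 68.0, 109 and 77.0 CPM and Ccnb1 at 2.53, 2.72, 6.86 and 4.26 CPM, and in these 2 genes wild type 1 was the highest library. T cells in cycle made up 1.57% (20 of 1275), 1.51% (43 of 2846), 1.43% (9 of 629) and 3.94% (32 of 813), with an interval of 2.71% to 5.51% for wild type 2. The mean of the mutants minus that of the wild types was -1.14 percentage points, and 0.11 without wild type 2. Thinned to 1500 UMIs, the shares were 0.917%, 0.401%, 0.968% and 1.28%, with overlapping intervals.

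Markers of T cell states also had different levels in the groups, without passing the test. Ccr7, a homing receptor of naive T cells, was at 8.38 and 11.6 CPM in the mutants and 21.8 and 38.7 CPM in the wild types (adjusted p of 0.757, edgeR). The 9 T cell activation genes summed to 1007, 1187, 923 and 1333 CPM, with overlapping groups; among them the inhibitory receptor Pdcd1 was at 147, 350, 138 and 134 CPM and the costimulatory receptor Icos at 171, 164, 237 and 360 CPM. The cluster led by Tcrg-C4 and Pdcd1 had 629 of its 732 cells from trnE mutant 2. The 10 macrophage markers summed to 651 and 329 CPM in the T cells of the mutants and 282 and 121 CPM in those of the wild types. The part of these cell states and markers in the members' values was not tested. Without that cluster 0 members were called.

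In macrophages most members had higher levels in the mutants than in the wild types, and again none passed the test. The 40 members summed to 558 and 397 CPM in the mutants and 386 and 257 CPM in the wild types, so that trnE mutant 2 and wild type 1 lay close together. Of the 39 members tested, 0 passed (all genes: 2 of 12454, 0.0161%; DESeq2 called 0 members and 1 gene, 0.00803%), and 6 had an unadjusted p under 0.05, against 663 of 12454 genes (5.32%). The median log2 fold change was 0.70 over the members and 0.01 over all genes, and 36 of 39 were above 0, the licensing group with 14 of 14. Wild type 2 had only 56 macrophages and 415722 UMIs there, and 15 members had 0 UMIs in it, which allows up to 7.22 CPM for each (3 counts). The macrophage cluster led by Ccl8 and Pf4 held 410 and 277 cells of the mutants and 31 and 9 of the wild types. The cluster led by Hspa1a held 394 and 74 cells of the mutants and 55 and 4 of the wild types. The part of this make-up in the members' values was not tested.

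The macrophage members with the smallest p came from both ends of the cycle, each at an adjusted p of 0.728 in edgeR. Gins2, a subunit of the replication helicase complex, was at 14.8 and 11.2 CPM in the mutants and 5.98 and 2.41 CPM in the wild types (256, 162, 32 and 1 UMIs), a log2 fold change of 1.52 ± 0.45. Mcm3 was at 31.2, 25.4, 20.7 and 14.4 CPM, a log2 fold change of 0.85 ± 0.36, and Mcm5 at 17.5, 17.3, 13.1 and 2.41 CPM. For these 3 replication genes, and for the mitotic genes that follow, wild type 1 lay below both mutants. Ube2c, the ubiquitin-conjugating enzyme of mitotic exit, was at 8.37, 8.95, 5.05 and 0 CPM, and the survivin gene Birc5 at 16.6, 10.3, 8.41 and 0 CPM. Cdc20, an activator of the same step, was at 4.39, 5.27, 1.87 and 4.81 CPM, with overlapping groups.

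Mki67 was at 9.70, 11.5, 9.53 and 2.41 CPM and Top2a at 19.5, 13.8, 14.4 and 0 CPM in macrophages, so the 3 well-filled libraries lay close together. Pcna was at 60.3, 49.7, 49.0 and 57.7 CPM, Stmn1 at 110, 49.8, 68.8 and 28.9 CPM and Ccnb1 at 1.85, 1.60, 1.31 and 0 CPM. Leaving out wild type 1, so that wild type 2 stood alone for its group, gave members called higher. These were Ube2c, Stmn1, Cenpa, Mcm5, Gins2, Pclaf, Top2a and Birc5. The share of all genes called with them is not reported here, so these calls are not read as standing out. Leaving out wild type 2 gave 0, with a median log2 fold change of 0.57 over the members and 0.04 over all genes. Both mutants lay above both wild types in CPM for 19 of the 40 members and below for 1. Among the members tested they lay above for 18 of 39, against 12.2% of all genes tested, and below for 1, against 34.2%. Macrophages in cycle made up 2.00% (55 of 2747), 2.09% (36 of 1723), 1.35% (11 of 815, interval 0.675% to 2.40%) and 0% (0 of 56, which allows up to 5.36%). The mean of the mutants minus that of the wild types was 1.37 percentage points, and 0.696 without wild type 2. The intervals of the 4 libraries overlap.

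**Figure D5:**
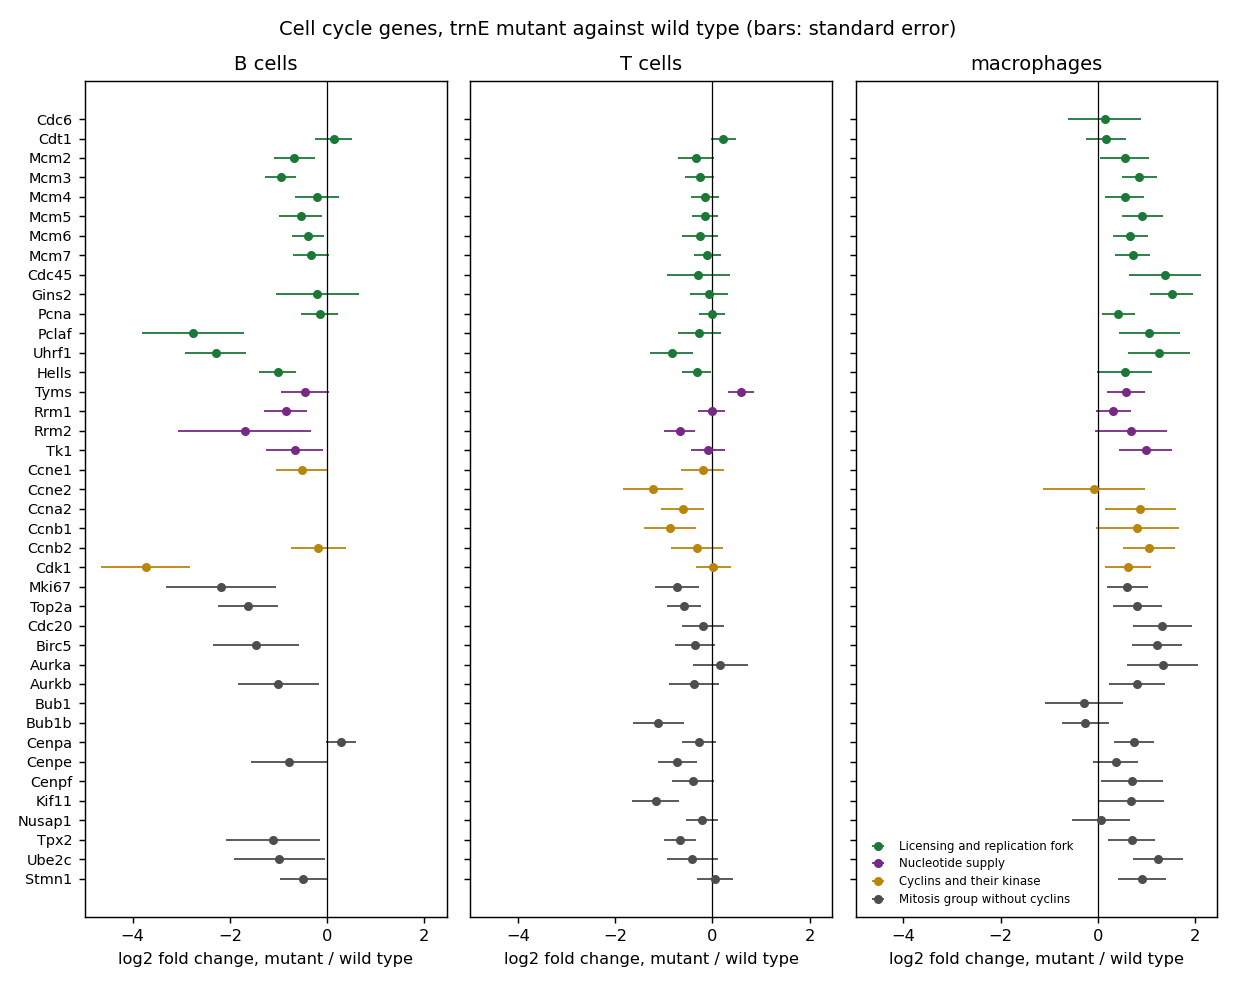
Log2 fold change, trnE mutant over wild type, of each tested member in B cells, T cells and macrophages, with bars of 1 standard error; a gene without a point had too few counts. Points lie mostly below 0 in B cells (26 of 28) and T cells (33 of 38) and mostly above 0 in macrophages (36 of 39), and none passed the test.

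The difference between classes was tested as an interaction of class and genotype with the library as a block, in edgeR. It called 0 of 40 members for B cells minus T cells, 0 of 40 for macrophages minus T cells and 0 of 38 for B cells minus macrophages (all genes: 0 of 12353, 0 of 13241 and 0 of 12464, 0%). At an unadjusted p under 0.05 there were 2, 10 and 10 members, against 2.30%, 3.35% and 2.58% of all genes. In B cells minus macrophages all 38 members had a negative value, with a median of -1.42 against -0.10 over all genes. When each library was left out in turn, these 2 interactions of B cells had members called only without wild type 1. Such calls thus came only where wild type 2 stood alone for its group. The share of all genes called with them is not reported here, so they are not read as standing out.

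In all kept cells together no member passed the test, and the groups overlapped in the sum of 40 members, at 570, 410, 427 and 563 CPM. Of 40 members 0 passed in edgeR (all genes: 0 of 17999, 0%; DESeq2 called 0 members and 41 genes, 0.228%) and 0 had an unadjusted p under 0.05, against 3.22% of genes. The median log2 fold change was 0.17, and -0.03 when scaled by library totals. Gins2 had the smallest p, at 8.61, 6.18, 4.14 and 4.47 CPM (log2 fold change 1.00 ± 0.43, adjusted p 0.779), followed by Mcm5 at 12.1, 13.9, 9.94 and 9.95 CPM. Pcna was at 51.0, 51.8, 45.2 and 44.0 CPM, Mcm7 at 18.1, 20.1, 15.9 and 17.3 CPM, and Mcm3 at 20.5, 20.4, 17.7 and 18.0 CPM. Both mutants lay above both wild types in these 5 licensing and fork genes and in no other of the 40 members. That share is near the 11.6% of all genes tested. Mki67, at 11.3, 8.33, 8.89 and 28.9 CPM, did not share that order. In such sums over a whole kidney, fewer cells of a type and less RNA per cell cannot be told apart.

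Dendritic cells gave more cells in cycle than any other named class, and their share in cycle was 10.7% (85 of 792), 6.70% (25 of 373), 10.4% (41 of 393) and 1.75% (1 of 57, interval 0.0444% to 9.39%). The cluster led by Xcr1, a receptor of cross-presenting dendritic cells, had shares of 16.5%, 14.7%, 17.8% and 0% (0 of 12, which allows up to 25% by the 3-count limit). The mitosis group summed to 756, 133, 522 and 443 CPM, so that here trnE mutant 2 stood lowest, and Ube2c was at 107, 13.6, 51.0 and 92.0 CPM. In wild type 2 a single cell in cycle held 56.6% of the UMIs of the 40 members, which summed to 786 CPM with it and 357 CPM without it. Of 40 members tested in edgeR, 0 passed (0 of 11385 genes, 0%) and 0 had an unadjusted p under 0.05, against 5.75% of genes. Without trnE mutant 1, the highest library, trnE mutant 2 stood alone for its group. Members were then called lower, among them Mki67, Top2a and Ube2c. The share of all genes called with them is not reported here. The wild-type side of these calls includes that single cell of wild type 2. Thinned to 1500 UMIs the shares were 5.45%, 0.542%, 2.82% and 1.82%, so the mutants were the highest and the lowest library.

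In the remaining classes with at least 50 cells in the smallest library, no member passed in edgeR or DESeq2. The genes called by edgeR were 0.0229% of those tested in NK cells, 0.0217% in monocytes, 0.495% in the proximal tubule, 0.133% in the thick ascending limb and 0% in the distal convoluted and connecting tubule. NK cells had 18 members tested, all above 0, with a median log2 fold change of 0.64 and 4 at an unadjusted p under 0.05 (4.81% of genes). Leaving out wild type 2 left wild type 1 alone for its group. Pclaf was then called higher in NK cells, and the share of all genes called with it is not reported here. The proximal tubule had 26 tested, with a median of 0.37, monocytes 12 with 0.24, and the distal convoluted and connecting tubule 8 with 0.63. The thick ascending limb had 3. NK cells in cycle numbered 7 in all.

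A second list of 111 cell cycle genes, none of them a member, had 0 genes past the test in B cells, T cells and macrophages. In B cells 0 of its 77 tested genes passed, with a median log2 fold change of -0.26, in T cells 0 of 101 with -0.24, and in macrophages 0 of 103 with 0.49. In B cells the smallest p belonged to the activator E2f3 (9.15, 9.73, 27.9 and 31.3 CPM), the DNA methyltransferase Dnmt1 and the brake Rb1. In T cells they were the motor Kif4, the repressor E2f8 and the polymerase subunit Pole, and in macrophages the brake Cdkn1a, the nucleotide enzyme Dut and the mitotic gene Hmmr. For E2f3 both wild types lay above both mutants, an order that Mki67 did not have.

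The 1 gene of that list that passed did so in the proximal tubule and is a brake of the cycle. Cdkn1a, the inhibitor p21, which halts the cycle and is known as a target of p53, was at 15.2 and 5.41 CPM in the mutants and 2.00 and 1.96 CPM in the wild types. Its log2 fold change was 2.58 ± 0.49 with an adjusted p of 0.0392 in edgeR, beside 65 of 13129 genes called (0.495%). Genes known to respond to tissue dissociation were higher in the same cells: Fos was at 128, 29.7, 8.75 and 18.7 CPM and Egr1 at 12.3, 8.90, 0.316 and 3.07 CPM, and both passed. The part of dissociation in the value of Cdkn1a was not tested. The call was lost with library totals, and without wild type 1, wild type 2 or trnE mutant 1, where the log2 fold change lay between 1.80 and 2.81; it held in DESeq2.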

How the data were processed

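Per the submitters' processing notes, the authors turned reads into UMI counts against mm10 with Cell Ranger 7.0.0 for both mutants and 7.1.0 for both wild types, so that software and group cannot be told apart; the counts were deposited raw. The annotation release is not given in the sources used here. Cells needed 200 genes, 500 UMIs and a mitochondrial share of 50% or less, and Scrublet (scanpy 1.11.5) removed 267, 222, 90 and 128 doublets in trnE mutants 1 and 2 and wild types 1 and 2. No correction for free RNA was made. Leiden clusters (leidenalg 0.10.2, 2000 variable genes, 30 components, 15 neighbours, resolution 1) were formed without the members and the second cell cycle list, gave 34 clusters and were named from marker lists, with at least 3 markers detected in at least 10% of cells. A cluster with plasmacytoid dendritic genes was left unnamed after its genes were seen.

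For each class the counts of a library were added up and tested with edgeR 4.0.16 (R 4.3.3; filterByExpr, TMM, quasi-likelihood test). P-values were adjusted by Benjamini-Hochberg over all genes tested, and 0.05 was the threshold. DESeq2 1.42.0 served as an alternative. Replicates are single mice by the labels, 2 per group. Fold changes are between libraries and levels are CPM of all UMIs of the class. On simulated counts, planted 4-fold changes were found for 65%, 70%, 94% and 24% of genes in B cells, T cells, macrophages and all cells. Planted 2-fold changes were found for 2%, 1%, 14% and 2%. The changes were planted only in genes with higher mean counts, and libraries of a group were drawn at the same expected level. These rates therefore do not cover members with few counts, or a group whose libraries differ as the 2 wild types did. Other settings tried were RLE scaling, library totals, no filter, a replicate block, leaving out each library, doublets kept, other mitochondrial limits, a minimum of 1500 UMIs and clusters formed with cell cycle genes. Chosen after seeing the data were the B cell clusters alone, T cells without 1 cluster, the crossed block, and the alternatives for other classes.

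The members and lists were chosen with earlier results of these data known. In B cells, T cells, macrophages and all cells, the text names members past the threshold or, where fewer than 6 passed, the 6 of smallest p, with Mki67, Top2a, Pcna, Mcm5, Stmn1 and Ccnb1, and up to 3 genes of smallest p per other list. Members named in dendritic and plasma cells, and the germinal centre and plasmablast genes in the cells in cycle, were chosen after their values were seen. Some genes that the rule names are not reported here.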

Additional observations from a re-analysis of the deposited data

How the results depend on the processing

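The count of members past the threshold stayed at 0 in B cells, T cells, macrophages and all kept cells under every alternative run, except 4 in B cells without the filter on low counts and the fits that left out a library. Leaving out each library gave 0 to 12 members in B cells, 0 to 8 in macrophages, 0 to 11 over the other classes, and 0 to 12, 0 to 14 and 0 to 1 in the interactions of B minus T cells, B cells minus macrophages and macrophages minus T cells; the B cell, macrophage and first 2 interaction maxima came without wild type 1, and the other 2 without trnE mutant 1. A lone library is assumed there to vary like the other group. The replicate block gave 0 members in each of the 4 comparisons and changed no call of a named gene; deviations of same-numbered libraries correlated at 0.236, 0.215, 0.0259 and -0.107 in B cells, T cells, macrophages and all cells, and the labels do not say that a number marks anything shared, so the libraries were taken to share only a number. The crossed block gave 0 members in all cells. Scaling by library totals put the median of all genes at -0.27, -0.19, -0.28 and -0.21 in these classes, and that of the members at -0.99, -0.51, 0.48 and -0.03.

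The difference in the share of cells in cycle (mutant minus wild type) was -3.24 percentage points in B cells, -8.95 when 2 genes sufficed, -1.23 when 5 were needed and -0.44 after thinning; in macrophages it was 1.37, and 3.30 when 2 genes sufficed and 0.557 after thinning. Of 577 values of 40 named gene and class pairs, 541 kept direction and side of the threshold, 15 gained and 4 lost a call, and 17 changed sign, none of these past the threshold. In B cells without 1 library, log2 fold changes ran from -2.97 to 2.21 for Mki67, -0.64 to 0.27 for Pcna, -1.01 to 0.0050 for Mcm5 and -1.17 to 0.072 for Stmn1. In the B cluster led by Ighd and Fcer2a alone they were 0.40 (Pcna), 0.33 (Mcm5) and 0.026 (Stmn1), and Stmn1 was 0.025 in the cluster led by Sox5 and Fcrl5. In T cells without 1 library they ran from -1.18 to 0.11 for Mki67, -0.11 to 0.13 for Pcna and -0.36 to 0.44 for Stmn1, which was -0.15 with library totals; in all cells Mki67 ran from -1.26 to 0.31. The cause of these changes was not tested.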
